A study of Mus musculus with 6 samples.

Results

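The release machinery of the presynaptic terminal was examined in 40 genes, chosen by symbol from a count table of 53715 genes, and all 40 were found there. They comprise 4 SNARE genes, 2 genes of SNARE disassembly, 13 synaptotagmins, 3 complexins, 3 synapsins, 5 vesicle membrane proteins, 5 active zone scaffold genes, 3 priming factors, and Rab3a with its effector Rph3a. Bulk poly(A) RNA was sequenced from the piriform cortex, a region that receives input from the olfactory bulb, of Gad2-Cre mice. All mice carried Cre recombinase under Gad2, which encodes a GABA-synthesising enzyme, and all had received a virus by stereotactic injection on 1 side. The 3 Caspase3 libraries came from mice given AAV-DIO-Caspase3, in which Cre switches on an executioner protease of apoptosis, and the 3 GFP libraries from mice given AAV-DIO-GFP. The labels give no age, sex, interval after injection or sampled hemisphere, and do not say whether each library came from its own animal, so the spread behind each p-value may be partly technical. The comparison asks how release genes stood where Gad2-expressing neurons were targeted for removal, in a study of seizures. Cell numbers were not measured, and in bulk RNA fewer cells of a type and less RNA per cell cannot be told apart.

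Synaptic vesicles fuse when a vesicle SNARE of the synaptobrevin family zips together with syntaxin and SNAP-25 of the plasma membrane. Unc13 proteins prepare vesicles at the active zone, complexins clamp and promote the assembled complex, and synaptotagmins sense the calcium that triggers fusion. The ATPase NSF and its SNAP adaptors then take the complex apart for reuse. Many steps are served by paralogs that differ between neuron classes: in the forebrain Syt1 and Vamp2 serve most synapses, while Syt2 and Vamp1 are best known from brainstem and spinal cord, and Syt2, Vamp1 and Cplx1 also from fast-spiking interneurons.

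The levels of close paralogs can be read apart only where their transcripts differ. The longest run of identical coding bases was therefore sought between members of a family, in the GENCODE M21 coding sequences, and 3 pairs with unequal levels are shown. Each line gives the run, read 5′ to 3′.
Cplx1 and Cplx2, from base 28 of both coding sequences: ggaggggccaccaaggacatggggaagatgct
Syt1 and Syt2, from base 886 of Syt1 and 889 of Syt2: gccaagaacctgaagaagatggatgt
Vamp1 and Vamp2, from base 127 of Vamp1 and 121 of Vamp2: gaggtggtggacatcatg
These runs span 32, 26 and 18 bases. No pair within a family shared a coding run longer than 32 bases, which is short beside the mean insert of about 300 bases that the labels give for these libraries.

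Promoters were read for the 30 members found by symbol in the RefSeq promoter table (GRCm38.p6), as the 250 bases before the first listed start. The other members are Snap25, Vamp2, Syt4, Syt5, Syt7, Syt12, Syt13, Syt17, Syn3 and Rims2. The windows of Vamp1, Syt2 and Cplx1 are shown because the levels of these genes were highest in the same 3 libraries, a choice made after their values were seen. Syt3 was highest in those 3 libraries too, and its window, not shown, had no match to GGGCGG or CCAAT on either strand. Capitals mark matches, on either strand, to GGGCGG, the GC box, which reads CCGCCC on the opposite strand, or to CCAAT, which reads ATTGG there, and no matches overlapped in these windows.
Vamp1, chr6:125215331-125215580, plus strand: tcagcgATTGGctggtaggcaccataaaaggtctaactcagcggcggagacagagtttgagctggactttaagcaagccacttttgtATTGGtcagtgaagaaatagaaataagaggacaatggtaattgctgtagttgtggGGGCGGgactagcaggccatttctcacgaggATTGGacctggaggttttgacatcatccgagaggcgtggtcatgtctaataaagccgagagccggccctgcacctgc
Syt2, chr1:134646362-134646611, plus strand: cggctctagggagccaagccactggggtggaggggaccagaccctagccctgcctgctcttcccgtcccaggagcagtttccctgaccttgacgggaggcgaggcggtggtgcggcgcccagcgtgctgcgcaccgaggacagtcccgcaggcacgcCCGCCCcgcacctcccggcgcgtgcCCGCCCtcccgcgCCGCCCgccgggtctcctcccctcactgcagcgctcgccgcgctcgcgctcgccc
Cplx1, chr5:108550028-108550277, minus strand: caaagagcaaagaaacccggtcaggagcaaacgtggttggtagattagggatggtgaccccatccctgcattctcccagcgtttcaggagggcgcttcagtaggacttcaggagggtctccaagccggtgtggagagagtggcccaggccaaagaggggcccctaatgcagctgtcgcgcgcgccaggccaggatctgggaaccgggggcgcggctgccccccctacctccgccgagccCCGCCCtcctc
The GC box was present in 21 of the 30 members' windows (70%) and in 32.9% of all 27025 promoter windows of that length. The letters CCAAT were present in 8 (26.7%) against 34.5% of all windows, and TATAAA, the TATA box, in 1, that of Sv2b (3.33% against 13%). The letters TGACGTCA, the cyclic AMP response element, were present in 1, that of Syn1 (3.33% against 1.62%). The median GC content was 61.2% in the members' windows and 52% over all windows. For Syt2 and Cplx1, the 30 bases after the RefSeq start were not found in a GENCODE transcript. A match describes letters in a window and not a bound site.

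Total counts per library lay between 20424581 and 26268377. Levels are given as CPM, counts scaled to the library total with TMM factors, and 3 counts equal 0.118 to 0.142 CPM. The targeted gene Gad2 stood at 26.7, 38.5 and 38.0 CPM in the Caspase3 libraries and at 92.4, 118 and 104 CPM in the GFP libraries, and it fell (log2 fold change -1.60, adjusted p = 0.00371 in edgeR's quasi-likelihood test). Neuronal markers were present throughout: the 15 pan-neuronal markers summed to 4892 to 5583 CPM in the Caspase3 and 5383 to 6313 CPM in the GFP libraries. None of them passed, and 4 were lower at an unadjusted p under 0.05 (3.91% of all tested genes). Of 22 GABAergic neuron markers, Gad2 was the 1 that passed, and all 22 had negative log2 fold changes. At an unadjusted p under 0.05, 14 were lower (3.91% of all tested genes). For 14 all Caspase3 libraries lay below all GFP libraries (6.29% of all tested genes). The GABAergic markers summed to 735 to 1138 CPM against 1231 to 1656 CPM. Of 14 microglia markers 11 rose (1.53% of all tested genes), with sums of 776 to 1109 CPM against 412 to 495 CPM. Of 13 oligodendrocyte markers none passed, but all had positive log2 fold changes. At an unadjusted p under 0.05, 3 were higher (6.72% of all tested genes). For 4 all Caspase3 libraries lay above all GFP libraries (8.96% of all tested genes). The oligodendrocyte markers summed to 9078 to 12951 CPM against 7895 to 9259 CPM. Of 16 excitatory neuron markers 10 were negative and 6 positive, of 11 endothelial and mural markers 4 and 7, and of 11 astrocyte markers 4 and 7, and among these 1 astrocyte marker rose.

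No release gene passed edgeR's test with its low-count filter and no block for the sample number, in either direction. All 40 members had enough counts to be tested with edgeR among 16721 genes, and 0 fell and 0 rose at an adjusted p under 0.05, where 0.114% of all tested genes fell and 1.53% rose. At an unadjusted p under 0.05, 3 members were lower in the Caspase3 group (Cplx2, Syt4 and Syt6; 3.91% of all genes) and 0 higher (6.72% of all genes). When single libraries were left out, 0 members passed after adjustment, and the number lower at an unadjusted p under 0.05 changed. It was 5 without Caspase3 1 (4.05% of all genes tested in that fit), 9 without Caspase3 2 (5.33%) and 1 without Caspase3 3 (2.31%). It was 8 without GFP 1 (3.82%), 2 without GFP 2 (2.92%) and 5 without GFP 3 (4.03%). In these fits 1 member was higher at that p, Unc13b without Caspase3 1 (5.81% of all genes). Limma-voom passed 0 members (1.38% of all genes passed) and DESeq2 passed 1, Cplx2 (2.41% of all genes passed). When genes with low counts were kept, edgeR passed 4 members (2.89% of all genes passed), Syt2, Syt6, Cplx3 and Sv2c, and for Syt2, Cplx3 and Sv2c the values of the groups overlapped.

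Signs were uneven. Of the 40 log2 fold changes, Caspase3 over GFP, 31 were negative (77.5%) against 50.2% of all tested genes, with a median of -0.14 against -0.0011 over all genes. Neuronal marker lists leaned the same way, with 12 of 15 pan-neuronal markers negative (median -0.11) and 22 of 22 GABAergic markers negative (median -0.76). Oligodendrocyte markers leaned the other way, with 13 of 13 positive and a median of 0.31. The part of cell type makeup in the members' signs was not tested. The range ran from -2.06 for Syt6 to 0.33 for Unc13b. The median moved to -0.06 without GFP 2, with 26 members negative, and to -0.09 without Caspase3 1, with 27 negative. Only for Syt6, Cplx2 and Sv2a did all Caspase3 libraries lie below all GFP libraries (6.29% of all genes), and for 0 members did they all lie above (8.96% of all genes).

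The intervals show which sizes of difference remain possible. The 95% interval of the fold change lay within 1.5-fold either way for 24 of 40 members (60%, against 56.8% of all tested genes), and within 2-fold for 34 (85%, against 79.0%). The 6 members whose interval reached past 2-fold were Syt2, Syt6, Cplx1, Cplx3, Sv2c and Synpr. All 6 reached past it on the lower side.

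**Figure D1:**
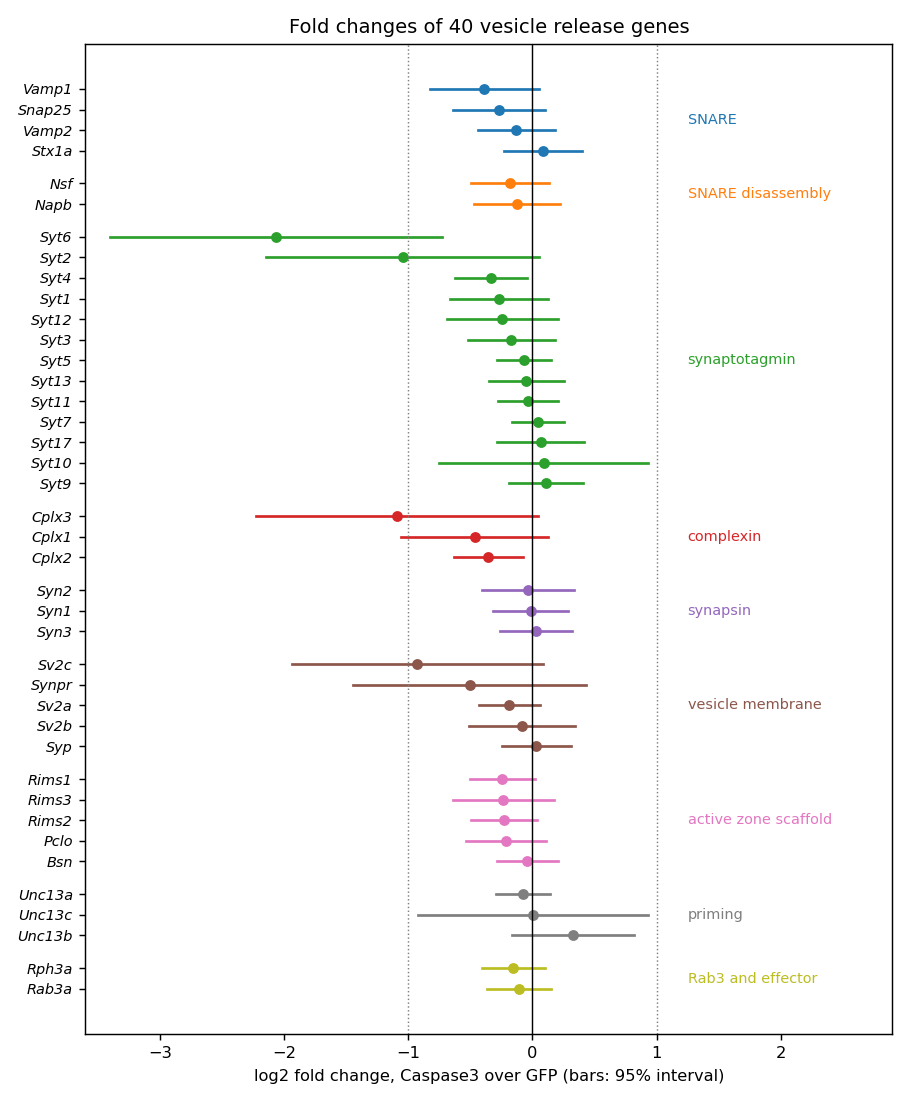
Log2 fold change of each of the 40 release genes, Caspase3 over GFP (x axis), with its 95% interval, grouped by role (colour) and ordered within it; dotted lines mark 2-fold lower and higher. The points lie between -2.06 (Syt6) and 0.33 (Unc13b), 31 of 40 left of 0, and the longest bars are those of Syt6, Syt2 and Cplx3.

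Levels were compared per length. In the deposited FPKM values, which divide counts by gene length, Snap25 led with a mean of 485 FPKM over the 6 libraries. Cplx2 (357), Syt1 (273), Vamp2 (241) and Cplx1 (214) followed, so that a SNARE of each membrane, 2 complexins and the main calcium sensor took the first 5 places. At the other end stood Syt6 at 1.74, Cplx3 at 0.967 and Syn3 at 0.900 FPKM. Read within each library, Snap25 exceeded Cplx2 and Cplx2 exceeded Syt1 in 6 of 6, so the first places kept their order. Syt1 exceeded Vamp2 in 5 of 6, Vamp2 exceeded Cplx1 in 3 of 6, and Cplx1 exceeded Syt11, the next, in 4 of 6. The ratio of the highest to the lowest library, in CPM, was smallest among the members for Syt7 and Syt11, at 1.11, and largest for Syt6 (9.94), Cplx3 (8.25) and Syt2 (5.63). A low level did not by itself go with a wide spread, since the ratio was 1.12 for Syt9 (mean 7.48 CPM) and 1.18 for Syn3 (mean 11.1 CPM). An exon of Timp3 on the other strand overlaps 14.1% of the exon bases of Syn3.

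**Figure D2:**
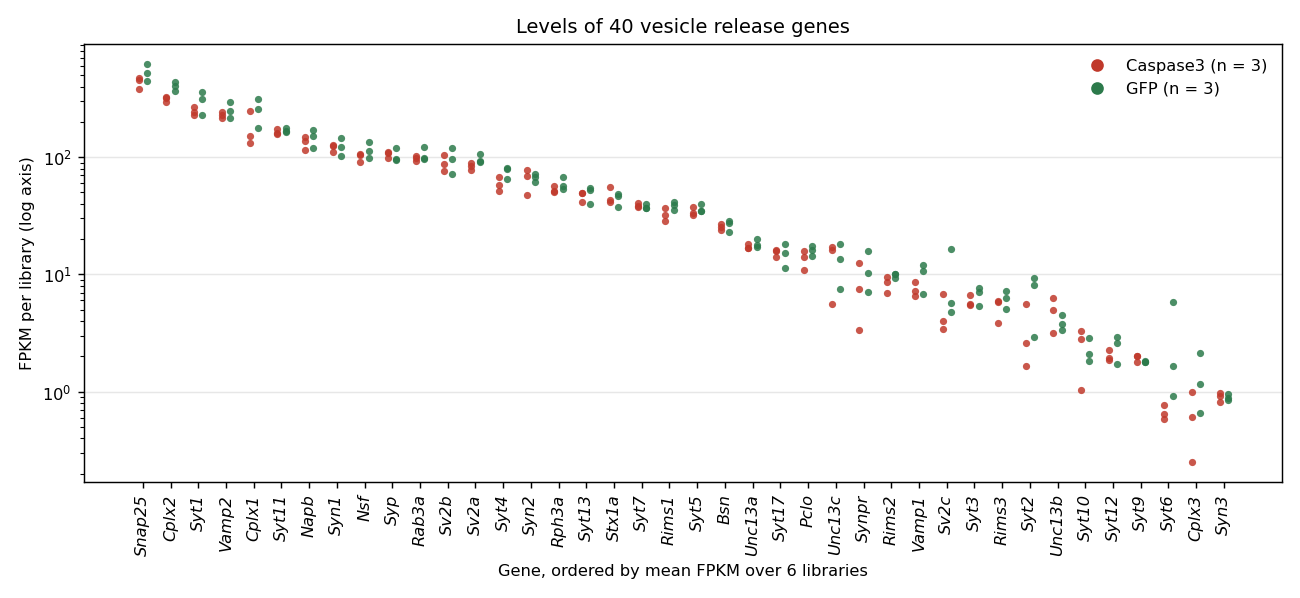
Deposited FPKM of each release gene in every library (log axis), Caspase3 in red and GFP in green, ordered by the mean over the 6 libraries. Snap25 is first with a mean of 485 FPKM and Syn3 last with 0.900 FPKM, and the ranges of the red and green points overlap for all genes but Syt6, Cplx2 and Sv2a.

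All 4 SNARE genes overlapped between the groups. Snap25 (ENSMUSG00000027273, chr2:136713453-136782428, plus strand, GRCm38), the plasma membrane SNARE that pairs with syntaxin, stood at 2662, 3249 and 3101 CPM in the Caspase3 libraries and at 3586, 4222 and 3038 CPM in the GFP libraries. GFP 1 and GFP 2 were the highest, but GFP 3 lay below Caspase3 2 and 3, so the groups overlapped. This gave a log2 fold change of -0.27 ± 0.16 (SE; adjusted p = 0.625, edgeR), with a 95% interval of -0.64 to 0.10. Vamp1 (ENSMUSG00000030337, chr6:125215551-125245964, plus strand), synaptobrevin-1, stood at 89.5, 73.5 and 66.8 CPM against 69.6, 121 and 109 CPM. GFP 2 and GFP 3 were highest, while GFP 1 stood among the Caspase3 libraries (log2 fold change -0.39 ± 0.20, adjusted p = 0.541). Without GFP 1 the log2 fold change was -0.59 and without GFP 2 it was -0.22. Vamp2, synaptobrevin-2 and the major vesicle SNARE of the forebrain, made up 95.3% to 97.3% of the summed FPKM of the Vamp1 and Vamp2 pair. Shares in FPKM, here and below, depend on the deposited gene lengths, which were 10167 bases for Vamp1 and 3809 for Vamp2. Without division by length, the means over all libraries were 88.3 CPM for Vamp1 and 923 CPM for Vamp2. Both Vamp2 and Stx1a, the syntaxin, overlapped between groups (adjusted p = 0.795 and 0.871).

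Both disassembly genes overlapped as well. Napb, which encodes beta-SNAP, the neuronal adaptor of NSF, stood at 824, 1048 and 986 CPM in the Caspase3 libraries and at 1078, 1185 and 856 CPM in the GFP libraries. GFP 3 lay in the Caspase3 range, as for Snap25 (log2 fold change -0.13 ± 0.15, adjusted p = 0.823). Nsf overlapped too (adjusted p = 0.707). Its share of the FPKM of the Nsf and Napb pair was 41.8% to 44.7% in all 6 libraries.

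Among 13 synaptotagmins 9 log2 fold changes were negative and 4 positive, with a median of -0.07, and 0 passed with DESeq2, limma-voom or filtered edgeR (2 with an unadjusted p under 0.05 in the last). With low-count genes kept, edgeR passed 2, Syt2 (adjusted p = 0.000278, and up to 0.825 over the alternatives) and Syt6 (6.68e-09, and up to 0.711). Syt1 (ENSMUSG00000035864, chr10:108497650-109010982, minus strand), the fast calcium sensor of most forebrain synapses, stood at 1928, 2239.6 and 2047 CPM in the Caspase3 libraries and at 2594, 2970.2 and 1915 CPM in the GFP libraries. Its highest value was in GFP 2 and its lowest in GFP 3, so the GFP group spanned the Caspase3 group. Over all libraries the log2 fold change was -0.27 ± 0.17 (adjusted p = 0.650), and it was -0.43 without GFP 3 and -0.12 without GFP 2. Per length, Syt1 made up 37.6% to 45.4% and Syt11, which lacks calcium binding in its first C2 domain, 22.7% to 29.1% of all synaptotagmin FPKM.

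Syt2 (ENSMUSG00000026452, chr1:134646677-134762593, plus strand), the fast sensor related to Syt1, had a mean of 5.02 FPKM against 273 for Syt1. Its libraries stood at 43.2, 19.9 and 12.6 CPM for Caspase3 and at 22.3, 62.3 and 71.0 CPM for GFP. Caspase3 1 lay nearer to GFP 2 than to either other Caspase3 library, and GFP 1 nearer to Caspase3 2 and 3 than to the other GFP libraries. Its log2 fold change was -1.04 ± 0.49 (adjusted p = 0.496), with a 95% interval of -2.14 to 0.05. It was -1.68 without Caspase3 1 and -0.74 without Caspase3 3.

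Syt6 (ENSMUSG00000027849, chr3:103575231-103645569, plus strand), a synaptotagmin also known from sperm exocytosis, stood at 3.46, 3.77 and 4.54 CPM in the Caspase3 libraries and at 9.74, 5.31 and 34.4 CPM in the GFP libraries. The groups did not overlap, and 1 GFP library, GFP 3, stood far above the other 5. For Syt6 the log2 fold change was -2.06 ± 0.59 (unadjusted p = 0.00675, adjusted p = 0.194), with a 95% interval of -3.40 to -0.73. Without GFP 3 it was -0.94 (adjusted p = 0.250). Markers of striatal projection neurons were highest in the same library. The 16 markers of that list summed to 535 to 549 CPM in the Caspase3 libraries and to 688, 580.2 and 1979.6 CPM in GFP 1, 2 and 3. Drd2, a dopamine receptor of these neurons, stood at 23.7 CPM in GFP 3 and at 0.190 to 1.03 CPM in the other libraries, and Pde10a at 478 against 47.3 to 96.3 CPM. All 16 had negative log2 fold changes, and 0 passed with edgeR. At an unadjusted p under 0.05, 10 were lower (3.91% of all tested genes), and Isl1 was at 0 in Caspase3 2 and 3. The part of these cells in the Syt6 values was not tested.

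Syt4 (ENSMUSG00000024261), a synaptotagmin of dense-core vesicles that rises with neuronal activity, stood at 203, 265 and 228 CPM in the Caspase3 libraries and at 310.4, 311 and 255 CPM in the GFP libraries. GFP 3 lay below Caspase3 2, so the groups overlapped by 1 pair of libraries. Syt4 had a log2 fold change of -0.33 ± 0.13 (unadjusted p = 0.0298, adjusted p = 0.385). Of its exon bases 14.5% overlap an exon of Gm26658 on the other strand, and no source used here gives the strand setting of the counting. The other 9 synaptotagmins, among them the high-affinity sensors Syt3 and Syt7 and the insulin-like growth factor secretion sensor Syt10, had log2 fold changes from -0.24 to 0.11 and adjusted p from 0.731 to 0.954. None of their groups stood apart.

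All 3 complexins had negative log2 fold changes. With the low-count filter and no block for the sample number, edgeR passed none of them. Cplx2 (ENSMUSG00000025867, chr13:54371349-54383917, plus strand), the complexin most abundant in forebrain excitatory neurons, stood at 1628, 1567 and 1457 CPM in the Caspase3 libraries and at 1828, 2127 and 1992 CPM in the GFP libraries. Every GFP library lay above every Caspase3 library. The difference was -0.35 ± 0.12 on the log2 scale (unadjusted p = 0.0183, adjusted p = 0.317, edgeR), with a 95% interval of -0.63 to -0.08. With DESeq2 it passed (adjusted p = 0.0470), and over the 16 alternatives the adjusted p ran from 0.0470 to 0.700 and the log2 fold change from -0.41 to -0.29. Leaving out 1 library at a time, the log2 fold change of Cplx2 lay between -0.41 and -0.30.

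Cplx1 (ENSMUSG00000033615, chr5:108518554-108550024, minus strand), the complexin best known from inhibitory and brainstem neurons, followed another order of libraries. It stood at 556, 335 and 294 CPM in the Caspase3 libraries and at 389.8, 679.7 and 567 CPM in the GFP libraries. Caspase3 1 lay beside GFP 3, and GFP 1 beside Caspase3 2. The log2 fold change was -0.47 ± 0.26 (adjusted p = 0.592), -0.79 without Caspase3 1 and -0.28 without GFP 2. Within the family, Cplx1 took 43.4% of complexin FPKM in Caspase3 1, 41.7% in GFP 2 and 39.0% in GFP 3, and 31.2% to 32.4% in the other 3 libraries. Cplx3, a complexin of retinal ribbon synapses and of subplate neurons, was rare, at 0.758, 2.91 and 1.81 CPM against 1.96, 6.26 and 3.47 CPM. Its groups overlapped, and its log2 fold change of -1.09 ± 0.50 (adjusted p = 0.493) became -0.57 without GFP 2 and -1.58 without Caspase3 2. Its adjusted p ran from 0.0210, in edgeR with low-count genes kept, to 0.891 over the 16 alternatives, and it passed in 2 of them.

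**Figure D3:**
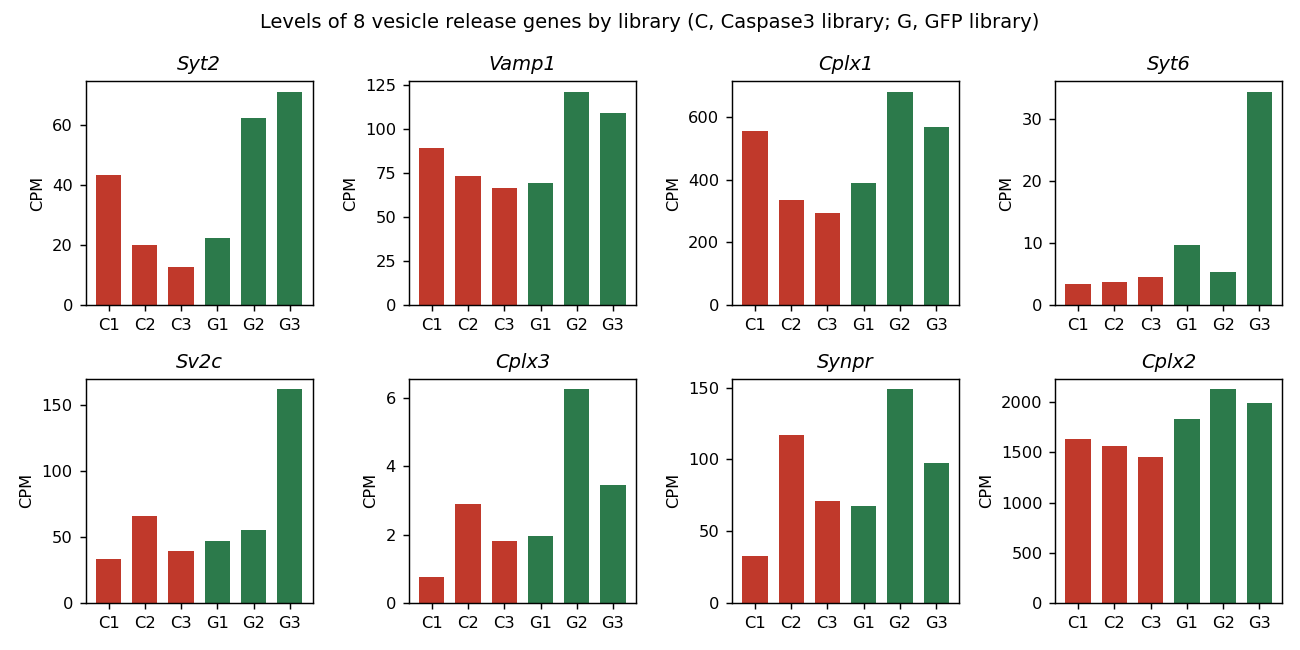
CPM (y axis, from 0) of 8 release genes in each library, Caspase3 in red (C1 to C3) and GFP in green (G1 to G3), 1 bar a library. Syt2, Vamp1 and Cplx1 are highest in C1, G2 and G3, Syt6 and Sv2c stand far above the rest in G3 (34.4 and 162 CPM), and Cplx2 is the 1 gene besides Syt6 here whose green bars all exceed the red ones.

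For the synapsins, which tether vesicles to one another and to actin, no difference past 1.5-fold lay in the 95% intervals. Syn1 (ENSMUSG00000037217, chrX:20860511-20921004, minus strand) stood at 375, 414 and 424 CPM in the Caspase3 libraries and at 404, 481 and 342 CPM in the GFP libraries. The GFP libraries held both its highest and its lowest value. Its log2 fold change was -0.02 ± 0.13 (adjusted p = 0.983), with a 95% interval of -0.32 to 0.29, and its sign changed under other scaling and without single libraries. Syn2 and Syn3 had adjusted p of 0.962 and 0.955. Syn3 made up at most 0.576% of synapsin FPKM in any library.

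Among the 5 vesicle membrane proteins, Syp, Sv2a and Sv2b had 95% intervals within 1.5-fold either way, while those of Sv2c and Synpr reached past 2-fold. Syp (ENSMUSG00000031144, chrX:7638471-7653256, plus strand), synaptophysin, a widely used terminal marker that binds synaptobrevin, stood at 572, 509 and 583 CPM in the Caspase3 libraries and at 508, 623 and 496 CPM in the GFP libraries. These values interleave (log2 fold change 0.03 ± 0.12, adjusted p = 0.949), and the sign changed without single libraries. An exon of Gm14703 on the other strand overlaps 16.8% of its exon bases. Sv2a (ENSMUSG00000038486, chr3:96181151-96195521, plus strand), the binding site of the antiseizure drug levetiracetam, stood at 422, 393 and 365 CPM against 423, 491 and 430.2 CPM. The groups did not overlap, but Caspase3 1 and GFP 1 were nearly equal (log2 fold change -0.19 ± 0.11, adjusted p = 0.603). Sv2b overlapped (adjusted p = 0.911).

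Sv2c (ENSMUSG00000051111, chr13:95954594-96132577, minus strand), the SV2 of the basal ganglia and of some interneurons, stood at 33.6, 65.8 and 39.4 CPM in the Caspase3 libraries and at 46.8, 55.1 and 162 CPM in the GFP libraries. As for Syt6, GFP 3 stood far above the rest, in the library with the highest striatal markers, and their part in it was not tested. The log2 fold change of -0.93 ± 0.45 (adjusted p = 0.518) became -0.15 without GFP 3. It was 0.044 without both GFP 3 and Caspase3 1. Sv2c took 9.22% of the SV2 family FPKM in GFP 3 and 2.01% to 3.46% in the other libraries. Synpr (ENSMUSG00000056296, chr14:13284780-13616340, plus strand), synaptoporin, a relative of synaptophysin enriched in certain terminals such as hippocampal mossy fibres, stood at 32.4, 117 and 71.2 CPM against 67.5, 149 and 97.2 CPM. The groups overlapped widely (log2 fold change -0.51 ± 0.41, adjusted p = 0.734), and the value was -0.15 without Caspase3 1 and -1.01 without Caspase3 2.

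All 5 active zone scaffold genes had negative log2 fold changes, between -0.24 and -0.04, and none passed (adjusted p from 0.506 to 0.930). Rims1 (ENSMUSG00000041670, chr1:22286251-22805994, minus strand), which binds Rab3, Unc13 and calcium channels, stood at 215, 269 and 238 CPM in the Caspase3 libraries and at 288, 306 and 261 CPM in the GFP libraries. The groups overlapped through Caspase3 2 and GFP 3 alone. The log2 fold change was -0.24 ± 0.11 (unadjusted p = 0.0637, adjusted p = 0.506), with a 95% interval of -0.50 to 0.02. The giant scaffolds Bsn and Pclo, bassoon and piccolo, overlapped between groups, and Bsn made up 61.6% to 68.5% of their summed FPKM.

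The priming factors did not share a sign. Unc13a (ENSMUSG00000034799, chr8:71624417-71671757, minus strand), the main priming factor of forebrain glutamate synapses, stood at 214, 212 and 231 CPM in the Caspase3 libraries and at 226, 249 and 217 CPM in the GFP libraries. The values overlapped (log2 fold change -0.08 ± 0.10, adjusted p = 0.829), and the 95% interval of -0.29 to 0.14 was among the narrower ones. Unc13b, the paralog used at a subset of synapses, was the member with the highest log2 fold change, 0.33 ± 0.22 (adjusted p = 0.658). It stood at 73.7, 113 and 144 CPM in the Caspase3 libraries, which held both its lowest and its highest value, against 103, 84.7 and 76.7 CPM. Without Caspase3 1 its log2 fold change was 0.55 (adjusted p = 0.142) and without Caspase3 3 it was 0.07. Unc13c, best known from the cerebellum, stood at 115 ± 56.3 CPM (SD) in the Caspase3 and 115 ± 48.0 CPM in the GFP group (adjusted p = 0.999), and took 22.1% to 47.0% of Unc13 FPKM.

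Rab3a (ENSMUSG00000031840, chr8:70754679-70758677, plus strand), the vesicle GTPase that docks through the Rims proteins and Rph3a, stood at 230.2, 206 and 221 CPM in the Caspase3 libraries and at 217, 271 and 219 CPM in the GFP libraries. Only GFP 2 stood outside the Caspase3 range. The log2 fold change was -0.11 ± 0.11 (adjusted p = 0.798). Rph3a, rabphilin, overlapped between groups as well (adjusted p = 0.700).

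Within each group the members' values varied by library. GFP 2 held the highest value of 26 of the 40 members, and Caspase3 1 the lowest of 18 and GFP 3 the lowest of 10. As log2 CPM minus the gene's mean over the 6 libraries, the median over members was 0.23 in GFP 2 and -0.13 in Caspase3 1, whereas the median of 9472 genes with 10 or more CPM on average lay between -0.011 and 0.026 in every library. Pan-neuronal markers were also highest in GFP 2, at 6313 CPM in sum, and oligodendrocyte markers were highest in Caspase3 1, at 12951 CPM against 7895 to 9259 CPM in the others. The part of neuronal and oligodendrocyte RNA in these values was not tested.

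Several sets of members shared their 3 highest libraries. Snap25, Vamp2, Nsf, Napb, Syt1, Syt4, Sv2b, Rims1, Bsn and Pclo were highest in Caspase3 2, GFP 1 and GFP 2. Vamp1, Syt2, Syt3 and Cplx1 were highest in Caspase3 1, GFP 2 and GFP 3. In those same 3 libraries the neurofilament subunit Nefh was highest (64.7, 63.8 and 49.6 CPM, against 34.4 to 41.7 CPM in the others). Nefm was also highest there (268, 280.1 and 369 CPM, against 183 to 222 CPM). Both belong to the list of 15 pan-neuronal markers, whose sum followed another order of libraries. That sum was 4918, 6313 and 5383 CPM in Caspase3 1, GFP 2 and GFP 3. It was 5583, 4892 and 5840 CPM in Caspase3 2, Caspase3 3 and GFP 1. The 22 GABAergic markers were lowest in sum in Caspase3 1. In Caspase3 1, GFP 2 and GFP 3 they summed to 735, 1586 and 1656 CPM. In Caspase3 2, Caspase3 3 and GFP 1 they summed to 1138, 826 and 1231 CPM. The relation of Nefh, Nefm and the GABAergic markers to the 4 genes was not tested. Cplx3, Synpr, Sv2c and Rims2 were highest in Caspase3 2, GFP 2 and GFP 3. These sets were formed after the values were seen and carry no test. Summed over all 40 members, the Caspase3 libraries held 15485, 17302 and 16396 CPM and the GFP libraries 18366, 21268 and 16667 CPM. GFP 3 lay within the Caspase3 range, so the sums overlapped.

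**Figure D4:**
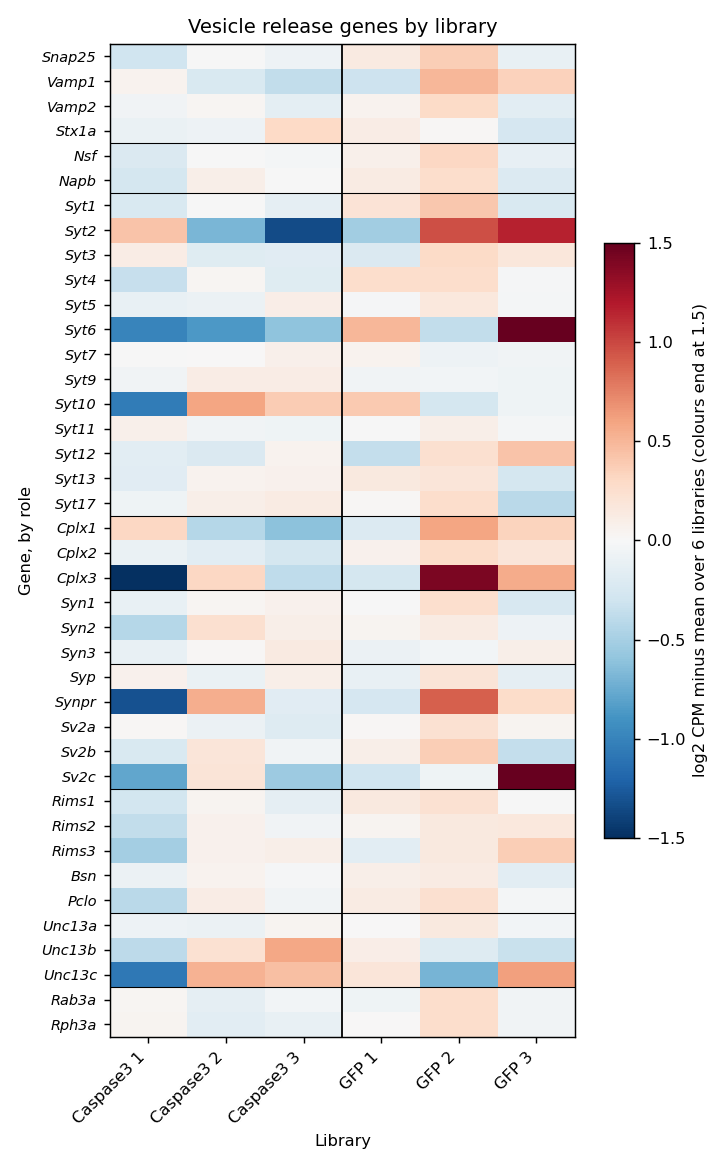
Each release gene (rows, by role) in each library (columns), as log2 CPM minus its mean over the 6 libraries; red is above and blue below that mean, and colours end at 1.5. GFP 2 is the highest library for 26 of 40 genes and Caspase3 1 the lowest for 18, while Syt6 and Sv2c are darkest red in GFP 3.

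The rest of the vesicle cycle was followed in 74 further genes, of which 73 were found in the table and 69 were tested. Of these 0 passed with limma-voom (1.38% of all genes passed). With filtered edgeR on all libraries and no block for the sample number, 0 passed (0.114% of all genes fell and 1.53% rose). With DESeq2 1 passed (2.41% of all genes passed). At an unadjusted p under 0.05 in edgeR, 4 were higher (6.72% of all genes) and 7 lower (3.91%). Of the 69 log2 fold changes 47 were negative and 22 positive (50.2% of all genes were negative), with a median of -0.07. EdgeR passed 6 when genes with low counts were kept (2.89% of all genes passed). The 4 with the smallest p are given. Rab3c, a close relative of Rab3a, stood at 519, 634 and 474 CPM in the Caspase3 libraries and at 726, 979 and 739 CPM in the GFP libraries, without overlap (log2 fold change -0.59 ± 0.16, adjusted p = 0.159). It was the gene that passed with DESeq2 (adjusted p = 0.00769), and its adjusted p reached 0.511 when single libraries were left out.

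Slc32a1, the transporter that loads GABA into vesicles, stood at 9.24, 20.9 and 11.5 CPM against 21.7, 31.3 and 58.2 CPM, with the highest Caspase3 library just below the lowest GFP library (log2 fold change -1.42 ± 0.39, adjusted p = 0.163). It was -0.94 without GFP 3. Dnm3, a dynamin of endocytosis, stood at 127, 167 and 134 CPM against 172, 196 and 184 CPM (log2 fold change -0.37 ± 0.12, adjusted p = 0.289), again without overlap. Unc13d, the Unc13 of cytotoxic lymphocyte granules, was the 1 of these 4 that was higher in the Caspase3 group, at 1.14, 0.455 and 0.986 CPM against 0.186, 0.158 and 0.220 CPM. The GFP values were near those of 3 counts, and the log2 fold change was 2.17 ± 0.47 (adjusted p = 0.0689). Without Caspase3 2 it passed (log2 fold change 2.46, adjusted p = 0.0371), as it did with low-count genes kept (adjusted p = 0.00433). With other single libraries left out the adjusted p of Unc13d was 0.167 to 0.298, and on the log2(FPKM + 1) scale, which understates changes of low genes, its difference was 0.18 (adjusted p = 0.491).

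Among vesicular glutamate transporters, Slc17a6, VGLUT2, stood at 25.8, 46.5 and 62.8 CPM in the Caspase3 libraries and at 33.8, 33.6 and 28.2 CPM in the GFP libraries, with Caspase3 1 below all GFP libraries and the other Caspase3 libraries above them. The log2 fold change was 0.50 ± 0.26 (adjusted p = 0.559), and without Caspase3 1 it passed at 0.78 (adjusted p = 0.0325). Over the fits that left out other single libraries its adjusted p lay between 0.538 and 0.931.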

How the data were processed

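The 40 members, the other gene lists and the tests were chosen with earlier results of these data known. The authors deposited whole-number read counts per gene with Ensembl identifiers, names and coordinates, per the file headers. They also deposited FPKM values, per the file headers, which equal count over gene length and a library constant of 95.63% to 105.6% of the total count. The submitters' processing notes name HISAT2, featureCounts, DESeq2, mm10 and GRCm38, without roles, and the kit labels the second cDNA strand, per the labels' protocols. No source used here gives the strand setting of the counting. Up to 17% of a member's 50-base words occur in other genes of GENCODE M21.

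Counts were tested with edgeR 4.0.16 under R 4.3.3 (glmQLFit and glmQLFTest after filterByExpr and TMM scaling, with intercept and group), with Benjamini-Hochberg adjustment over 16721 genes and a threshold of 0.05. SE is the absolute log2 fold change over the square root of F, and 95% intervals use the fit's degrees of freedom. FPKM served for levels, shares and alternatives. Alternatives used DESeq2 1.42.0, limma 3.58.1 (voom, or log2 of FPKM plus 0.1 or 1), other scaling, no filter, a block for the sample number, and single libraries left out; a fit without Caspase3 1 and GFP 3 was added after seeing the data. Every column of library values was used. Replicates differed by more than sampling noise (mean chi-square per gene 12.6 to 33.1). The tests were tried on simulated counts, drawn independently for each gene and library, without shifts shared by many genes of a library. Figures were drawn with Matplotlib 3.10.9.

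Full values were given for members with an adjusted or unadjusted p under 0.05, for the member of each role with the highest mean FPKM, for the 4 other vesicle cycle genes with the smallest p, and for Gad2. Marker genes were named only beside members that were high in the same libraries. Syt2, Vamp1, Cplx1, Cplx3, Sv2a, Sv2c, Synpr, Unc13b and Slc17a6 were named after their values were seen. Of 16 excitatory neuron markers (4812 to 5192 CPM in sum against 4569 to 5651), 13 oligodendrocyte, 11 endothelial and mural, and 4 olfactory bulb and cerebellar markers tested, edgeR passed 0, with an unadjusted p under 0.05 in 2, 3, 0 and 1. At that p, 3.91% of all tested genes were lower and 6.72% higher. Vamp7 and Bcl11b were not analysed here.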

Additional observations from a re-analysis of the deposited data

How the results depend on the processing

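No member was higher at the threshold under any of the 16 alternatives. The count of members lower was 0 with filtered edgeR and no block, and 0 whenever 1 library was left out. It became 4 with no filter on low counts (Cplx3, Sv2c, Syt2 and Syt6). With DESeq2 it was 1 (Cplx2), as it was with the replicate block (Cplx3). The median log2 fold change of the members kept its sign throughout, at -0.20 to -0.06 with single libraries left out and -0.08 with library totals, where the median of all genes was 0.06. Of all tested genes, 274 passed with edgeR, 913 with no filter, 497 with DESeq2, 139 with limma on log2(FPKM + 1), 0 with that scale and no filter, and 17 (without GFP 2) to 285 with single libraries left out (144 without GFP 3), or 337 without both Caspase3 1 and GFP 3. Gad2 stood at -1.47 on the log2 scale in the last of these limma fits (adjusted p = 0.189), and it passed under each of the other alternatives (adjusted p up to 0.0494). The other vesicle cycle genes gave 6 calls with no filter, 1 with DESeq2, 0 to 1 with single libraries left out and 1 without both Caspase3 1 and GFP 3. The cause of these differences was not tested.

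Signs turned between fits for several members, not all of them with values near 0. The log2 fold change of Syn1 was 0.049 with library totals and -0.14 to 0.12 with libraries left out (0.038 without Caspase3 1, 0.12 without GFP 2). Syp ranged from -0.048, without both Caspase3 1 and GFP 3, to 0.15 (-0.021 without Caspase3 3, -0.014 without GFP 1, -0.038 without GFP 3). Rab3a ranged from -0.19 to 0.0063, the latter without GFP 2, and Sv2c from -1.27 to 0.044, the latter without both libraries. The sign also turned for Unc13c (-0.28 to 0.68), Syt10 (-0.20 to 0.44) and Rims3 (-0.36 to 0.067). It turned as well for Stx1a, Syt11, Syt13, Syt17, Syn2, Syn3, Sv2b and Bsn.

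Deviations from the group mean were correlated across genes between the groups. Same-numbered libraries gave r = 0.0648, 0.178 and 0.0273, and differently numbered ones -0.142 to 0.0794. With deviations centred on 3 libraries a group, these values cannot decide whether the numbers pair the samples. With the replicate block 421 genes passed, 1 member was lower, Cplx3 (log2 fold change -1.11, adjusted p = 0.0447, against 0.0210 to 0.891 over the alternatives), and 1 other vesicle cycle gene passed, Rab3c (adjusted p = 0.0351). Counts per library were lowest for Cplx3 (16 to 158) and Syt10 (41 to 134) among the members. The 95% intervals describe the uncertainty of the fitted fold change from 3 libraries a group.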
